A study of Mus musculus with 6 samples.

Results

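The ETS transcription factors share a DNA-binding fold, the ETS domain, that recognises a GGAA core in the DNA. The genes described here are *Erg* and *Fli1* (the ERG group), *Ets1* and *Ets2* (the ETS group), *Etv1*, *Etv4* and *Etv5* (the PEA3 group), the repressor *Etv6*, the ternary complex factor *Elk3* and *Elf1*. They were taken from the table of counts by gene name, which found all 10 genes among 43346. The RNA-seq compared 3 control with 3 senescent samples of mouse adult fibroblasts (MAFs), which are primary ear cells of adult female mice (C57BL6/J). The control was a sham irradiation, and senescence was brought about by 20 Gy of X-rays followed by 21 days in culture. Both groups were grown at 3% oxygen and treated with 100 nM dexamethasone for 2 hours to synchronize their clocks, and RNA was taken 12 hours later. No sample was left without dexamethasone, and the labels do not say whether the replicates came from separate animals or cultures, so the p-values measure the spread between these samples, which may be technical.

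As background, many ETS proteins act at the end of the Ras and ERK kinase pathway. ERK phosphorylates ETS1, ETS2, the PEA3 proteins and the ternary complex factors, and the PEA3 genes are themselves switched on by fibroblast growth factors through ERK. ERG and FLI1 are best known from endothelium and blood, and ERG also from cartilage of the joints, while ETV6 represses transcription. In fibroblasts, ETS1 and ETS2 are known as activators of the p16 promoter, which links the family to senescence.

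Most of these genes changed, and the members of the family went in opposite directions. *Erg* fell 10.8-fold and *Ets2* fell 3.44-fold, while *Etv1*, *Etv4* and *Etv5* rose between 2.68- and 5.72-fold. Genes were called where the p of the edgeR quasi-likelihood test, adjusted after Benjamini and Hochberg for 17589 genes, was under 0.05. By this rule, 4 of the 10 genes were higher in senescent cells and 4 were lower. Of all genes tested, 36.2% were higher and 34.1% lower, so the number of changed ETS genes was near the background. With the threshold in the study's methods, which asks for a log2 fold change beyond 1 in either direction at an unadjusted p under 0.05, *Etv1*, *Etv4* and *Etv5* were higher and *Erg* and *Ets2* lower. This rule called 17.8% of all genes higher and 12.3% lower. The control and senescent values did not overlap in any of the 10 genes, as in 75.3% of all genes tested. In these bulk samples, fewer cells of a type and less RNA per cell cannot be told apart.

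Total counts lay between 50288454 and 82229553 per library. Libraries of a group differed by more than the sampling noise in every pair, and senescent replicate 3 stood farthest from the others of its group. The senescence markers moved with the labels. *Cdkn1a*, which encodes p21, rose from 123 ± 2.01 to 620 ± 16.3 CPM (counts scaled to a common library size; mean ± SD, n = 3 per group), and *Mki67*, which encodes the proliferation marker Ki-67, fell from 589 ± 17.3 to 9.60 ± 1.49 CPM. Among 9 fibroblast markers all were detected, and their summed level was 17580 to 19650 CPM in control and 6504 to 7749 CPM in senescent libraries. Of these, 4 were higher and 5 lower, where 36.2% of all genes tested were higher and 34.1% lower. *Col1a1* and *Col3a1* fell while *Dcn* and *Thy1* rose.

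The promoters of some of these genes are shown here because *Erg* fell while *Etv5*, *Etv1* and *Elk3* rose. Each is the stretch of 250 bases upstream of a RefSeq start site in the build GRCm38.p6, read 5′ to 3′ on the strand of the gene, and none overlaps an exon of the annotation. The capitals mark GGAA, the ETS core, or TTCC, its reverse strand.
Erg, chr16:95586594-95586843, minus strand: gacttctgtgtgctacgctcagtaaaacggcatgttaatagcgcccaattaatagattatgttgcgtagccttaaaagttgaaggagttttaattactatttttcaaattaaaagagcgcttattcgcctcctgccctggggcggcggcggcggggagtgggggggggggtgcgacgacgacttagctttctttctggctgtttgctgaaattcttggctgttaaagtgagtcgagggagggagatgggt
Etv5, chr16:22438369-22438618, minus strand: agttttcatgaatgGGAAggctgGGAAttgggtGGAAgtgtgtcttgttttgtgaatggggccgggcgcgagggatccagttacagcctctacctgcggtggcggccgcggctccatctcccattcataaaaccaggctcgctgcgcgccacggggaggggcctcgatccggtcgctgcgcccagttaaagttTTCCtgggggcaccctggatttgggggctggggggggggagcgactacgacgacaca
Etv1, chr12:38779832-38780081, plus strand: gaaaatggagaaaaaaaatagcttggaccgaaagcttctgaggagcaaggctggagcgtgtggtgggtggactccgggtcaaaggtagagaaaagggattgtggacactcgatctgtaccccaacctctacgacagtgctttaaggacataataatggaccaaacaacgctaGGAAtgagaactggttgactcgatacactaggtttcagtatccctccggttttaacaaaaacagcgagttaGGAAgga
Elk3, chr10:93311160-93311409, minus strand: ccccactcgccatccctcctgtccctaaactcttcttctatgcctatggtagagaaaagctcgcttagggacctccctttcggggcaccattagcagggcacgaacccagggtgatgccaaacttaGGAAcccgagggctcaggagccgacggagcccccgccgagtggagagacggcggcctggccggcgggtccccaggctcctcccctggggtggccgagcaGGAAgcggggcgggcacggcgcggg
The *Erg* stretch holds no GGAA on either strand, the *Etv5* stretch holds 4 matches and those of *Etv1* and *Elk3* hold 2 each. These numbers belong to the starts shown. *Erg* has 2 further RefSeq starts, whose stretches hold 4 and 2 matches, *Etv5* has another whose stretch holds 0 and *Etv1* another whose stretch holds 1. The counts per gene do not show which start was used. Among the other genes that fell, the stretch of *Ets2* holds 1 match, that of *Etv6* 3 and those of *Elf1* 2 and 0. The number of matches thus did not separate the genes that fell from those that rose. A link between the matches and the changes was not tested. Stretches were found for 7 of the 10 genes, 12 in all, and those of *Ets1*, *Etv4* and *Fli1* were not. Across 32851 such stretches of all genes, 93.4% hold GGAA and 12.0% hold the longer CCGGAA, which contains it. GGAA was in 9 of the 12 ETS stretches and CCGGAA in 0. The AP-1 motif TGAGTCA, whose reverse strand is TGACTCA, was in 1 of the 12 (a second start of *Elf1*) and in 4.46% of all stretches. The E-box CACGTG, the motif of BMAL1, was in 0 of the 12 and in 6.02% of all.

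*Erg* (ENSMUSG00000040732, chr16:95359169-95586593 in mm10) had the largest decrease of the 10 genes. Its level was 78.6, 80.1 and 82.6 CPM in control replicates 1, 2 and 3 and 7.43, 7.33 and 7.65 CPM in senescent replicates 1, 2 and 3. All control libraries were far above all senescent ones, and the libraries of a group lay close together. The control mean was 10.8 times the senescent mean, a log2 fold change of -3.43 (standard error 0.06, edgeR adjusted p = 1.24e-08). Of all genes tested, 6.13% changed by more in either direction. In the senescent libraries the gene still had between 412 and 646 counts, so a low level of *Erg* RNA was measured there. *Fli1* (chr9:32422204-32542861), its closest relative among the genes described, was at 7.04, 6.99 and 6.95 CPM in control and 6.49, 5.38 and 6.56 CPM in senescent libraries. The groups did not overlap, but the highest senescent values came near the control values. Its log2 fold change was -0.19, with a 95% interval from -0.42 to 0.05, and missed the threshold (edgeR adjusted p = 0.134). Without senescent replicate 3 it passed (edgeR adjusted p = 0.0369), where the other alternatives gave up to 0.426. Per length of transcript, the level of *Erg* was 11.2 to 12.0 times that of *Fli1* within the control libraries and 1.15 to 1.37 times within the senescent ones.

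**Figure D1:**
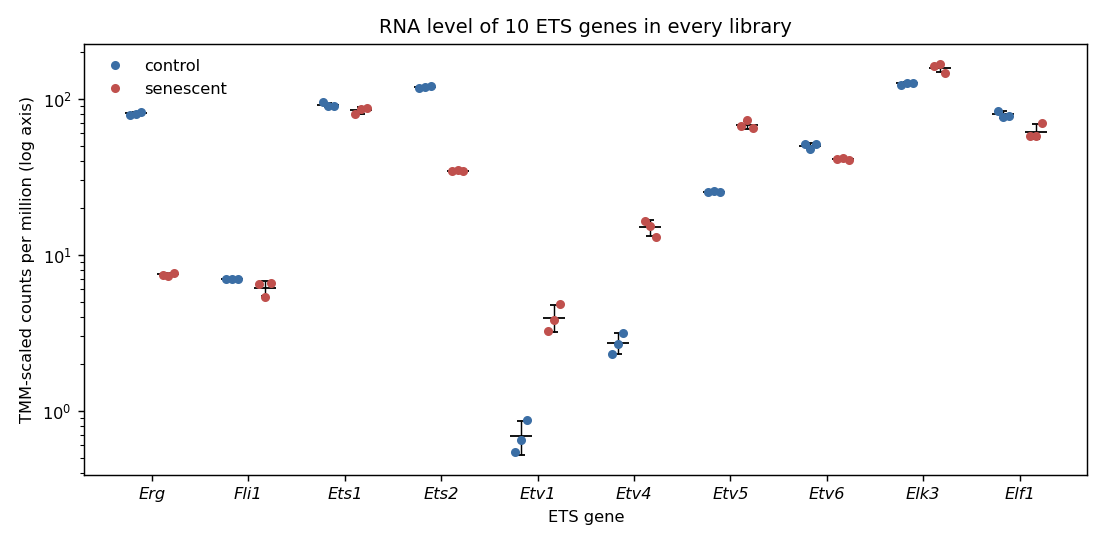
Level of each of the 10 ETS genes in TMM-scaled CPM on a log axis, with a point per library, blue for control and red for senescent, and black marks for mean and SD (n = 3 per group). *Erg* and *Ets2* lie lower in senescent cells, at means of 7.47 and 34.6 CPM, and *Etv1*, *Etv4* and *Etv5* lie higher, at 3.95, 15.0 and 68.2 CPM.

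*Ets2* (chr16:95702075-95721051) encodes an activator that ERK phosphorylates. It was at 117.5, 118.7 and 120.3 CPM in control libraries and 34.4, 35.1 and 34.2 CPM in senescent libraries. The groups were apart by more than their spread, and *Ets2* had the second largest decrease of the 10 genes. Its control mean was 3.44 times the senescent mean, with a log2 fold change of -1.78 (standard error 0.05, edgeR adjusted p = 6.15e-08). *Ets1* (chr9:32636221-32757820), which encodes the closely related activator, was at 94.5, 89.8 and 90.1 CPM in control and 79.6, 85.6 and 87.3 CPM in senescent libraries. The groups did not overlap, but the highest senescent value was close to the lowest control value. The log2 fold change of *Ets1* was -0.12, with a 95% interval from -0.26 to 0.02, and missed the threshold (edgeR adjusted p = 0.103). Without senescent replicate 3 it passed (edgeR adjusted p = 0.00771), with up to 0.545 under the other alternatives. Per length, *Ets1* was at 0.416 to 0.447 of the level of *Ets2* within control libraries and at 1.29 to 1.42 times that level within senescent libraries, so the order of these genes was turned around. With the union of exons as the length, the ratio was 0.511 to 0.549 in control and 1.58 to 1.74 in senescent libraries.

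The PEA3 genes, which encode activators at the output of ERK signaling, all rose. *Etv4* (chr11:101769742-101785371) was at 2.33, 2.66 and 3.17 CPM in control and 16.6, 15.3 and 13.1 CPM in senescent libraries. Every senescent library was above every control library. The mean rose 5.51-fold, a log2 fold change of 2.46 (standard error 0.14, edgeR adjusted p = 2.51e-06). *Etv5* (chr16:22381309-22439719) was at 25.1, 25.7 and 25.4 CPM in control and 66.8, 72.9 and 64.9 CPM in senescent libraries. The control values were almost the same in all libraries, and the senescent values varied more. *Etv5* rose 2.68-fold, with a log2 fold change of 1.42 (standard error 0.07, edgeR adjusted p = 6.58e-07). *Etv1* (chr12:38779380-38868215) had the lowest level of the 10 genes, with 27, 39 and 43 counts in control and 181, 301 and 405 counts in senescent libraries. This was 0.541, 0.653 and 0.879 CPM against 3.27, 3.80 and 4.80 CPM. The groups did not overlap, and the senescent mean was 5.72 times the control mean, with a log2 fold change of 2.53 (standard error 0.22, edgeR adjusted p = 2.35e-05). Within libraries and per length, *Etv5* was at 6.06 to 8.18 times the level of *Etv4* in control and at 3.05 to 3.75 times in senescent cells.

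The remaining genes changed by less than 1 on the log2 scale. *Elk3* (chr10:93247414-93311135), which encodes a partner of serum response factor that represses transcription until ERK phosphorylates it, was at 123, 126 and 127 CPM in control and 161, 166 and 146 CPM in senescent libraries. Its senescent values were all higher, with a log2 fold change of 0.33 (standard error 0.06, edgeR adjusted p = 0.00206). *Etv6* (chr6:134035700-134270158) was at 50.9, 47.8 and 51.4 CPM in control and 41.0, 41.9 and 40.2 CPM in senescent libraries. It was lower in all senescent libraries, with a log2 fold change of -0.29 (standard error 0.06, edgeR adjusted p = 0.00263). *Elf1* (chr14:79481194-79582476), best known as a regulator in lymphoid cells, was at 83.5, 76.9 and 77.4 CPM in control and 57.8, 57.6 and 69.5 CPM in senescent libraries. Senescent replicate 3 was the closest to control, and the log2 fold change was -0.36 (standard error 0.09, edgeR adjusted p = 0.00594). *Elf1* overlaps *Wbp4*, which lies on the other strand with 2203 to 5177 counts per library, and the strand setting of the counting is not given in the sources used here.

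The levels of different genes were compared per length, as TMM-scaled CPM per kilobase of the gene length in the table of counts. In control cells the order from high to low was *Elk3*, *Ets2*, *Erg*, *Elf1*, *Ets1*, *Etv6*, *Etv5*, *Fli1*, *Etv4* and *Etv1*, and no neighbours in this order overlapped between libraries. *Elk3* was at 27.6 ± 0.438, *Ets2* at 25.2 ± 0.300 and *Erg* at 23.2 ± 0.575 CPM per kilobase (SD, n = 3). In senescent cells the order was *Elk3*, *Etv5*, *Elf1*, *Ets1*, *Ets2*, *Etv6*, *Etv4*, *Erg*, *Fli1* and *Etv1*. *Elk3* was again first, at 34.6 ± 2.27 CPM per kilobase, *Etv5* had moved from place 7 to place 2, at 16.6 ± 1.02, and *Erg* from place 3 to place 8, at 2.16 ± 0.0475. *Etv5* and *Elf1* were the only neighbours whose libraries overlapped there. The length in the table was shorter than the union of exons in the GENCODE annotation used here for *Etv1* (5889 against 13296 bases), *Elf1* (4314 against 6737) and *Ets2* (4710 against 5780). With the union as the length, *Erg* at 23.2 ± 0.575 stood above *Ets2* at 20.6 ± 0.244 CPM per kilobase in control cells. In senescent cells *Ets1* at 9.93 ± 0.479 then stood above *Elf1* at a mean of 9.14, and *Etv6* at 6.85 ± 0.143 above *Ets2* at 5.98 ± 0.0817. With the longest transcript as the length, *Ets2* stood above *Elk3* in control and *Ets1* above *Elf1* in senescent cells. *Erg* was at place 8 in senescent cells with all these lengths.

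**Figure D2:**
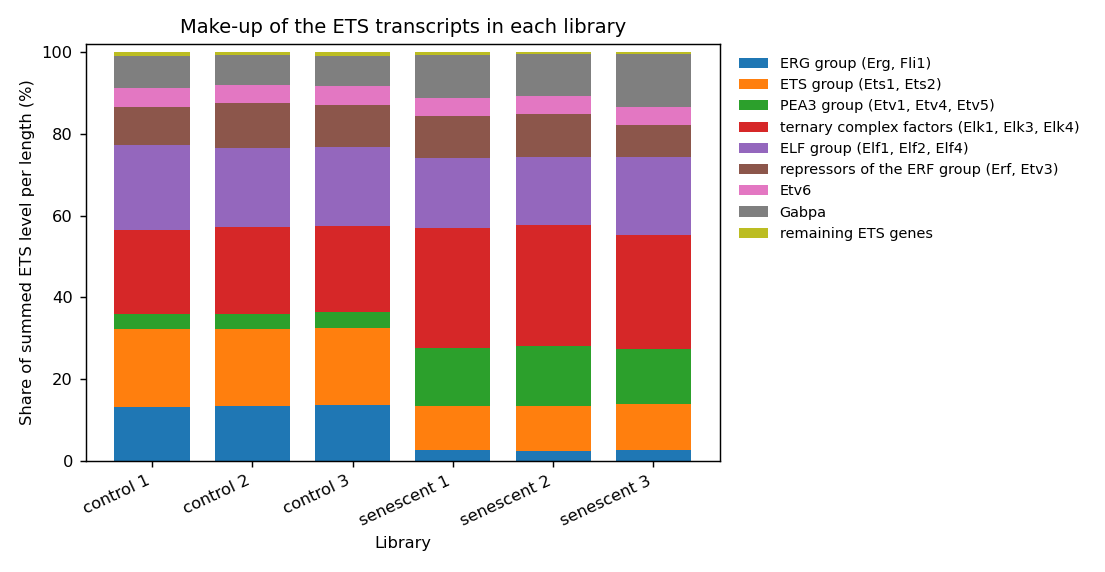
Share of each ETS group in the summed level per length of 27 ETS family genes, in percent, with a bar for each of the 6 libraries. The ERG group takes 13.1% to 13.6% in control and 2.30% to 2.63% in senescent libraries, and the PEA3 group 3.69% to 3.86% and 13.4% to 14.7%.

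Together with 17 other family genes of a fixed list, the summed ETS level per length was 188.7 to 190.4 CPM per kilobase in control and 155.4 to 158.8 in senescent libraries. The 10 genes described held 64.2% to 65.0% of it in control and 62.7% to 63.8% in senescent libraries. The ETS group went from between 18.9% and 19.1% to between 10.7% and 11.3%. The ternary complex factors *Elk1*, *Elk3* and *Elk4* went from between 20.6% and 21.2% to between 27.9% and 29.6%. These shares describe how the ETS transcripts were made up and were not tested.

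Of the 17 other family genes, 9 had enough counts for a test, and 3 were higher and 5 lower, where 36.2% of all genes tested were higher and 34.1% lower. Of the 3, *Spib* passed the filter through its senescent counts. The 8 below the filter were *Elf3*, *Elf5*, *Etv2*, *Fev*, *Spdef*, *Spi1*, *Spic* and *Etv3l*, of which *Etv3l* is a pseudogene in the table and was matched by its Ensembl identifier. *Ehf*, which encodes an ETS factor known from epithelia, was at 10.3, 9.36 and 9.99 CPM in control and 1.14, 1.26 and 1.31 CPM in senescent libraries. It was 7.98 times higher in control, with a log2 fold change of -2.99 (edgeR adjusted p = 1.47e-07). *Spib*, which encodes a factor of the B lymphocyte lineage, had 1, 0 and 0 counts in control and 66, 107 and 96 counts in senescent libraries. The ratio of the depth-scaled sums was 195, with an exact 95% counting interval from 34.6 to 7720. *Elf2*, *Elf4*, *Elk1* and *Erf* were lower, with log2 fold changes from -0.61 to -0.39. *Etv3*, which like *Erf* encodes a repressor, was higher at 0.60 (edgeR adjusted p = 7.77e-05). *Gabpa* was higher at 0.30 (edgeR adjusted p = 0.0175), a call that was lost without control replicate 2 (0.0603) or 3 (0.0604) and held under the other alternatives, down to 0.000234. *Elk4* had a log2 fold change of 0.02, with a 95% interval from -0.14 to 0.18. Like *Elf1*, *Gabpa* overlaps a gene on the other strand, *Atp5j*, with 4449 to 7589 counts per library. *Elk1* overlaps *Uxt* on the same strand, with 462 to 759 counts. How reads in these overlaps were assigned is not given in the sources used here.

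**Figure D3:**
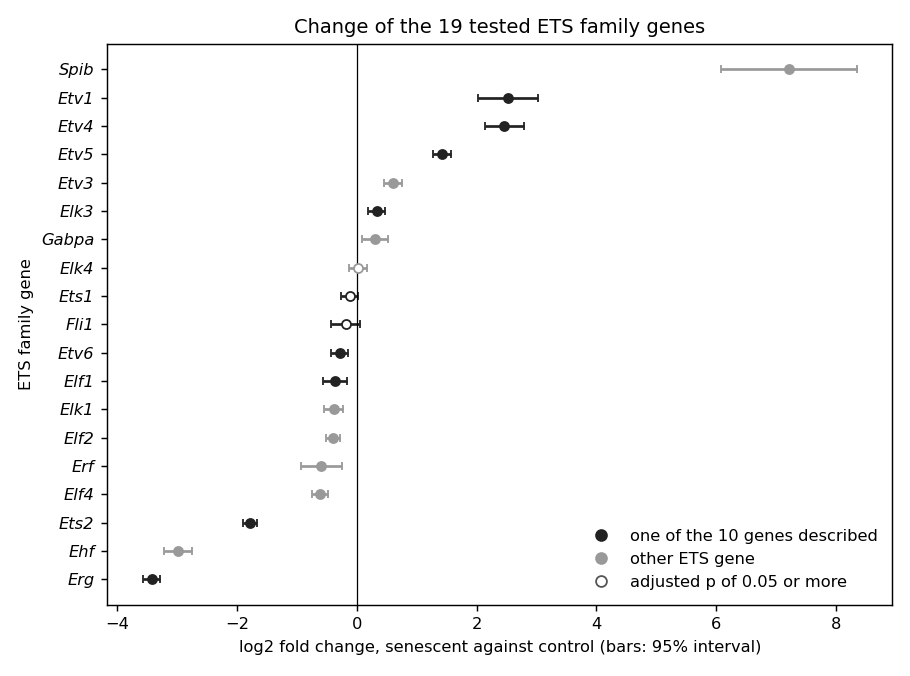
Log2 fold change of senescent against control cells for the 19 ETS family genes tested, with 95% intervals from the edgeR fit. Black points are the genes described, grey points the other family genes and open points those that missed an adjusted p of 0.05. *Spib* and the PEA3 genes *Etv1*, *Etv4* and *Etv5* are at the top, and *Erg*, *Ehf* and *Ets2* are at the bottom.

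*Erg* and *Ets2* are neighbours on chromosome 16, with 115.5 kb between them, and *Fli1* and *Ets1* are neighbours on chromosome 9, with 93.4 kb between them. Both genes of the first pair fell, and both genes of the second pair missed the threshold. Within 1 Mb either side of *Erg* and *Ets2*, 12 other genes were tested, of which 6 were lower and 4 higher. These are too few to set against the 34.1% lower and 36.2% higher among all genes tested. Of the 4, *Sh3bgr* and *Dscam* were at 0.0582 and 0.0462 CPM in control and passed the filter through their senescent counts. *Kcnj15*, which encodes a potassium channel and lies on the far side of *Erg* from *Ets2*, rose by 2.57 on the log2 scale, from 2.70 to 16.1 CPM. *Psmg1*, the first tested gene beyond *Ets2*, had a log2 fold change of -0.43. Around *Fli1* and *Ets1*, 5 other genes were tested, with 3 lower and 0 higher, too few to set against those shares. These windows were chosen after the values of the pairs had been seen.

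**Figure D4:**
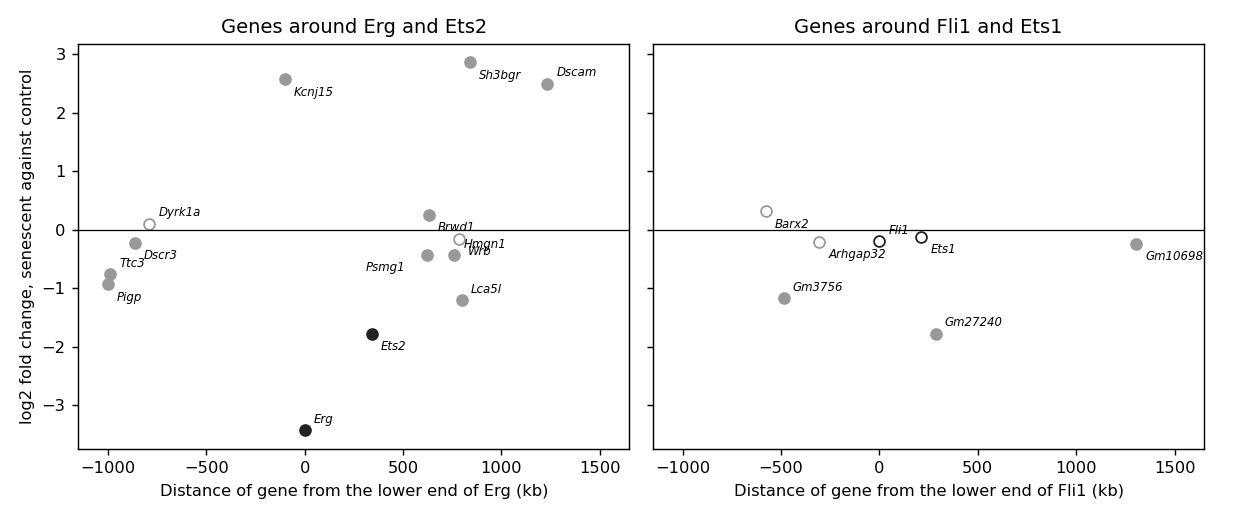
Log2 fold change of each tested gene within 1 Mb of *Erg* and *Ets2* (left) and of *Fli1* and *Ets1* (right), against its distance in kb from the lower end of the first gene of the pair. Black points are the pair, and open points missed an adjusted p of 0.05. *Erg* at -3.43 and *Ets2* at -1.78 are the lowest points on the left, where *Kcnj15* lies at 2.57.

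Genes with 6 values like those of *Erg* were sought among 14167 tested genes whose mean count was 50 or more. The ETS family genes were left out beforehand. Likeness was the root-mean-square distance of log2 CPM, each gene centred on its control mean. The closest genes were *Fam83d*, *Tacc3*, *C430049B03Rik*, *Cdc6* and *Rad51c*, at distances from 0.0608 to 0.0778 on the log2 scale. *Tacc3*, a gene of the mitotic spindle, fell from 94.1 ± 3.58 to 8.40 ± 0.236 CPM, and *Cdc6*, a gene of replication licensing, from 30.2 ± 1.07 to 2.65 ± 0.114 CPM (SD, n = 3 per group). With samples in 2 groups, this likeness rests mostly on the size of the difference between the groups.

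ERG is known from cartilage and endothelium, so markers of both stand beside its fall. All 10 chondrocyte markers were tested and all 10 were lower in senescent cells, where 34.1% of all genes tested were lower. Their summed level was 7027 to 7511 CPM in control and 662 to 737 CPM in senescent libraries. *Acan*, which encodes the cartilage proteoglycan aggrecan, had a log2 fold change of -3.82, *Matn3* of -5.24 and *Comp* of -1.18. The part of the chondrocyte genes in the fall of *Erg* was not tested. The endothelial markers went the other way. Their sum was 3.15 to 3.40 CPM in control and 17.1 to 18.6 CPM in senescent libraries, and without *Flt1*, which added most to the difference, it was 2.89 to 3.20 and 10.3 to 10.8 CPM. Of the 11 markers, 4 had at least 10 counts in every library and were higher, where 36.2% of all genes tested were higher. *Cdh5*, *Kdr* and *Vwf* were also called higher, but had fewer than 10 counts in at least 1 control library and passed the filter through their senescent counts. The defining endothelial genes *Cdh5* and *Pecam1* stayed low, at 0.494 ± 0.0440 and 1.29 ± 0.117 CPM in senescent cells, and *Tie1* had at most 2 counts in any library. For the sum of 8 blood and macrophage markers, the range went from 8.08 to 8.80 CPM in control to 14.4 to 17.2 CPM in senescent cells. Of these markers, 6 were tested and all 6 were higher, where 36.2% of all genes tested were higher. Of the 6, 3 had fewer than 10 counts in at least 1 control library and passed the filter through their senescent counts. *Spi1*, itself an ETS gene of myeloid cells, had 0 counts in control and 1, 1 and 4 counts in senescent libraries. The 6 keratinocyte markers summed to 15.8 to 16.6 CPM in control and 21.2 to 22.2 CPM in senescent libraries, but a single gene carried the rise. This was *Ivl*, which encodes involucrin of the cornified envelope, with 0 counts in every control library and 741, 1114 and 1222 counts in senescent libraries. Without *Ivl* the sum was 15.8 to 16.6 CPM in control and 7.70 to 7.79 CPM in senescent libraries. *Trp63*, a regulator of basal keratinocytes, was lower, with a log2 fold change of -1.65. *Krt5* and *Krt10* were not called, and *Dsg3* had at most 2 counts. The part of these cell types in the changes of the ETS genes was not tested.

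The ERK cascade lies upstream of many ETS proteins. Of 19 genes for the kinases and their feedback inhibitors, 12 passed the test as higher and 3 as lower, against 36.2% and 34.1% of all genes, and the 19 had a median log2 fold change of 0.58 against 0.01 for all genes tested. All 9 feedback genes of the list, the *Dusp*, *Spry* and *Spred* genes, were higher, where 36.2% of all genes tested were higher. *Spry4*, which encodes an inhibitor of receptor tyrosine kinase signaling, rose from 1.18 ± 0.0793 to 17.7 ± 0.289 CPM, and *Dusp6*, which encodes the phosphatase of ERK, from 5.34 ± 0.205 to 35.1 ± 1.39 CPM (SD, n = 3 per group). *Dusp4* and *Spred2* had log2 fold changes of 3.80 and 1.71. The kinase genes were divided. *Map2k1*, which encodes the ERK kinase MEK1, was higher (0.58), while *Mapk3*, which encodes ERK1, and the scaffold gene *Ksr1* were lower (-0.86 and -1.75). The part of the ERK cascade in the changes of the ETS genes was not tested.

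Partners and regulators of ETS proteins went both ways. Of 22 genes, 7 rose and 8 fell, near the background, and the median log2 fold change was 0.02. Without control replicate 1, 2 or 3 there were 4 higher genes, and without control replicate 2, control replicate 3 or senescent replicate 1 there were 5 lower genes. *Trib2* and *Trib1*, which encode adaptors of the ubiquitin ligase COP1, rose from 20.6 ± 0.577 to 122.8 ± 3.47 and from 12.2 ± 0.491 to 30.7 ± 1.19 CPM. COP1 marks PEA3 proteins and ETS1 and ETS2 for degradation, and its gene, listed as *Rfwd2*, was higher by 0.38 on the log2 scale (edgeR adjusted p = 0.00267). *Cic*, which encodes the repressor of the PEA3 genes, was at 155 ± 15.9 in control and 105 ± 27.3 CPM in senescent cells (log2 fold change -0.56, edgeR adjusted p = 0.0248). Its control libraries were at 137, 165 and 163 CPM and its senescent libraries at 114, 126 and 74.2 CPM, lowest in senescent replicate 3. The corepressor gene *Atxn1l* had a log2 fold change of -0.46. The part of these genes in the rise of the PEA3 genes was not tested. *Srf*, which encodes the partner of ELK3, was higher by 0.42 (edgeR adjusted p = 0.0215). It was at 34.5, 38.0 and 38.4 CPM in control and 53.7, 55.6 and 39.1 CPM in senescent libraries. Senescent replicate 3 was thus close to the highest control value. *Gabpb2*, which encodes a partner of GABPA, fell from 108.7 ± 3.83 to 49.5 ± 4.33 CPM. *Sp100* rose by 3.62 on the log2 scale, but it has similar copies in the mouse genome among which reads could have been split.

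Of 25 genes with ETS control in textbooks, 21 were tested, of which 18 rose and 2 fell, where 36.2% of all genes tested were higher and 34.1% lower. Of the 18, *Mmp9*, *Mmp10*, *Mmp13*, *Kdr*, *Cdh5* and *Vwf* had fewer than 10 counts in at least 1 control library and passed the filter through their senescent counts, which favours a rise among them. Of the 15 genes that reached 10 counts in each of the libraries, 12 rose and 2 fell, with a median log2 fold change of 1.21. Among the 21 tested genes, *Dusp6* and *Spry4* also stand in the ERK list and 5 vascular genes in the endothelial list. *Mmp3*, which encodes a matrix metalloproteinase, rose by 5.51 on the log2 scale. *Flt1*, which encodes a receptor for vascular endothelial growth factor, rose from 0.229 ± 0.0301 to 7.19 ± 0.505 CPM. *Ccnd1*, which encodes cyclin D1, rose from 237.5 ± 11.3 to 871 ± 24.8 CPM (SD, n = 3 per group), and *Cdkn2a*, the p16 gene, from 1.20 to 4.50 CPM (268, 460 and 241 counts in the senescent libraries). A count per gene does not separate the p16 transcript from other transcripts of *Cdkn2a*. *Mcl1* and *Egr1*, known targets of ternary complex factors, were higher by 0.38 and 1.21 on the log2 scale. The lower genes were *Fos*, another target of these factors (-0.80), and *Itga2b*, a platelet gene (-1.16).

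**Figure D5:**
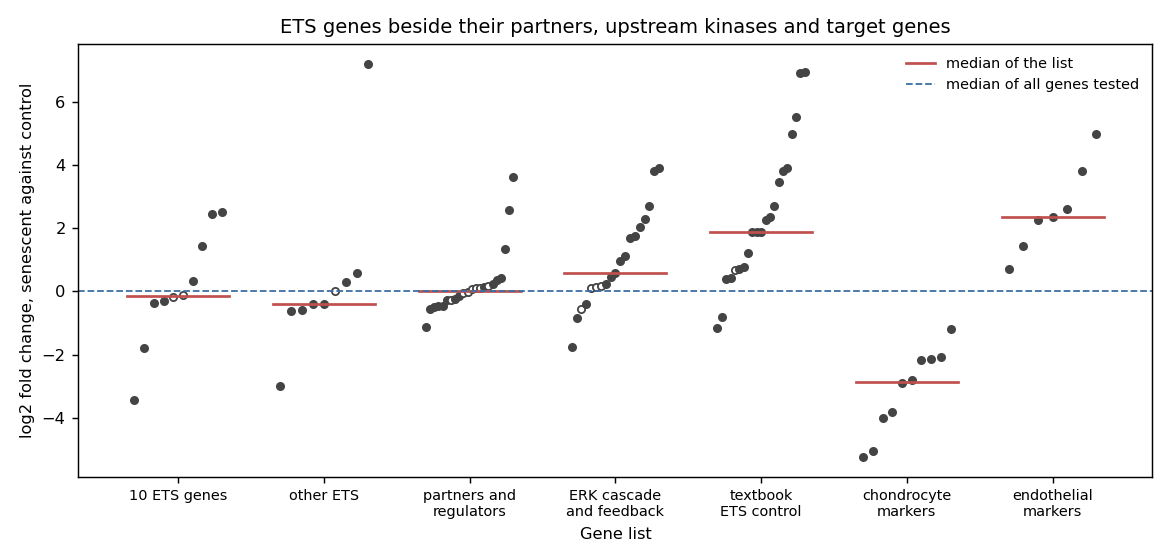
Log2 fold change of senescent against control cells for each tested gene of 7 lists, a point per gene, open where the adjusted p was 0.05 or more. Red lines are list medians and the dashed line is the median of all genes tested. List medians include genes that passed the filter through their senescent counts, which favours a rise. Leaving these genes out lowered the median from 1.90 to 1.21 for the textbook list and from 2.34 to 2.02 for endothelial markers. The medians are -0.15 for the 10 ETS genes, 0.58 for the ERK list and -2.86 for chondrocyte markers.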

How the data were processed

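RNA was made into stranded libraries from 200 ng of total RNA and sequenced from both ends. The authors ran MAPRSeq, in which STAR aligned to mm10 and Subread assigned reads to genes, and deposited the raw counts without normalization. The annotation release, the strand setting and the rule for reads with several alignments are not given in the sources used here.

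From these counts, genes were kept by filterByExpr (17589 of 43346), scaling used TMM factors, and the test was the robust quasi-likelihood F test of edgeR 4.0.16 in R 4.3.3 (two-sided, with no covariate), with Benjamini-Hochberg adjustment over all genes tested. Standard errors are the absolute log2 fold change of the fit before shrinkage by a prior count, divided by the square root of the F statistic. CPM are TMM-scaled. The fit was tested on simulated data. Counts of 0 allow up to 3 counts, which covers counting error alone. A 3 against 3 exact permutation test cannot go below 0.1 and was not used. Alternatives were RLE scaling, library size alone, no filter, a filter of 10 counts per library, the exact test of edgeR, DESeq2 1.42.0, the replicate number as a block, and removing each library in turn.

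The 10 genes and all lists were chosen with earlier results of these data known. Named were the 10 genes, the other family genes and, from each list, up to 4 genes per direction with the smallest p and a few with a known tie to ETS proteins. *Comp*, *Egr1*, *Map2k1*, *Kcnj15*, *Psmg1*, *Col1a1*, *Col3a1*, *Dcn*, *Thy1*, *Tie1*, *Spi1*, *Dsg3*, *Ivl*, *Trp63*, *Krt5*, *Krt10*, *Mmp9*, *Mmp10*, *Mmp13*, *Vwf*, *Sh3bgr* and *Dscam* were added after their values had been seen. Promoter sequences are from RefSeq (GRCm38.p6), and exons and lengths were checked against GENCODE M21 on GRCm38, the assembly of mm10. A protein sequence table was not used here. The values of 1 gene of the ERK list are not reported here.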

Additional observations from a re-analysis of the deposited data

How the results depend on the processing

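Of 13 alternatives, none changed the call or the direction of *Erg*, *Ets2*, *Etv1*, *Etv4*, *Etv5*, *Etv6*, *Elk3* or *Elf1*, and the log2 fold change of *Erg* stayed between -3.45 and -3.35. With the threshold in the study's methods in place of an adjusted p, 3 of the 10 genes were higher in place of 4 and 2 were lower in place of 4. *Elk3*, *Etv6* and *Elf1* were not called by that threshold. For the partners and regulators of ETS proteins, 5 genes were lower in place of 8 when libraries were scaled by size alone or when genes were not filtered, and leaving out each library gave 4 to 9 higher and 5 to 9 lower genes. The cause was not tested. *Elk4*, which was not called, went from 0.02 to -0.005 without control replicate 3 and to -0.025 without senescent replicate 3, within a range of -0.025 to 0.058 when each library was left out. With the longest transcript as the length, *Elk3* took place 2 in control cells, behind *Ets2*. With the union of exons, a length chosen after seeing the data, *Erg* took place 2 in control cells, ahead of *Ets2*. Scaling moved the median of all genes by at most 0.08 on the log2 scale.

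Replicate numbers are shared by the groups. The deviations of same-numbered samples from their group means had r of -0.374, 0.293 and -0.263 across genes. Deviations within a group of 3 offset one another, and senescent replicate 3 stood apart. These values therefore cannot decide whether the numbers pair the samples. With the replicate number as a block, 11624 genes were called in place of 12365, and no call among the 10 ETS genes changed. Senescent replicates 1 and 3 correlated best with a control replicate of another number. A count of 0 allows up to 0.0355 to 0.0613 CPM, depending on the library, so genes such as *Spi1*, *Spic*, *Etv2* and *Fev*, with at most 7 counts in any library, could not be compared at this depth.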
